A study of Mus musculus with 6 samples.

Results

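The 44 genes described here are interferon-stimulated genes, transcripts that cells raise when interferons bind their receptors. They were taken by name from the annotation of 6 one-colour Agilent arrays of ureter RNA. Of the 44 names, 43 had at least 1 probe, and these 43 are among 22260 genes tested. Tgtp1, a GTPase gene, had no probe under that name. The members were divided into 30 type I-like genes, 11 genes of guanylate-binding proteins and immunity-related GTPases (10 measured), and 3 genes kept apart because interferon gamma also drives them strongly, Irf1, Irf8 and Cd274.

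Every ureter came from a 2-month-old mouse on the C57BL/6N background, 4 days after unilateral ureteral obstruction, a ligation that stops urine from draining on the operated side. The groups were 3 mice labelled Col17a1-WT and 3 labelled Col17a1-KO, with 1 array a mouse, and KO replicate 3 was female while the other 5 mice were male. Unobstructed ureters were not analysed here, so no value says how far obstruction itself moved a gene. The labels do not describe the altered allele, whether wild-type mice were littermates, or whether mice were operated together. Nothing beyond the labels says that the samples are separate mice, so the p-values measure the spread between these samples.

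Interferons fall into type I (alpha and beta), type II (gamma) and type III (lambda). Type I and III receptors activate a complex with Stat2 and Irf9 that binds the interferon-stimulated response element, and gamma acts through the gamma-activated site. The first route is best known for antiviral effectors such as Isg15, the Ifit, Oas and Mx proteins and Irf7, and the second for large GTPases that attack pathogen vacuoles, although most of these genes answer to both. In an obstructed urinary tract, infiltrating leukocytes, the urothelium and stromal cells can all carry such transcripts. In bulk RNA fewer cells of a type and less RNA per cell cannot be told apart.

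The promoters of 6 members are shown because they hold the elements that these routes use, in type I-like members (Isg15, Ifit3, Oas1a, Bst2), a GTPase gene (Igtp) and a gamma-responsive factor (Irf8). Each line gives the 200 bases before the RefSeq start site (GRCm38.p6), 5′ to 3′ on the gene's own strand. Capitals mark matches to the response element core GAAANNGAAA on either strand and to the gamma-activated site core TTCNNNGAA, which reads the same on both strands.
Isg15 (chr4:156200819-156201018, minus strand): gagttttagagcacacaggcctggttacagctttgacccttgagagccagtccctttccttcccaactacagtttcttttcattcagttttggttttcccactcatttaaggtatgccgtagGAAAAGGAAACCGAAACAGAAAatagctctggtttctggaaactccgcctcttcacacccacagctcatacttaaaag
Ifit3 (chr19:34583329-34583528, plus strand): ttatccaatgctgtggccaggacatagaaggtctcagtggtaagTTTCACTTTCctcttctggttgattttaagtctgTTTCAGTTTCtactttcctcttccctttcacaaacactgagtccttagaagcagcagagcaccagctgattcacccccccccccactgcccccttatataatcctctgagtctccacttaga
Oas1a (chr5:120907526-120907725, minus strand): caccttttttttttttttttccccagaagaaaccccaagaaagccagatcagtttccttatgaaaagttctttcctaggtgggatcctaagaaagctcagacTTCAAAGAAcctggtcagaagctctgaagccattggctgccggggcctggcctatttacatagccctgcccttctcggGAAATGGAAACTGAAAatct
Bst2 (chr8:71537473-71537672, minus strand): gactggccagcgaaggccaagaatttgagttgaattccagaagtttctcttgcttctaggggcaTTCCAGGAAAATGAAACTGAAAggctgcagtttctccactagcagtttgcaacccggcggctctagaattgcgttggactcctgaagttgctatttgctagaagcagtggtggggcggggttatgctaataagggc
Igtp (chr11:58199356-58199555, plus strand): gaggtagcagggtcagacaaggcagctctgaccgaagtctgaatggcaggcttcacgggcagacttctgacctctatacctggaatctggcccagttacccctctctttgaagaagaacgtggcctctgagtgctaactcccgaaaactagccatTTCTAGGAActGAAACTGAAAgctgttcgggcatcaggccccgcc
Irf8 (chr8:120736158-120736357, plus strand): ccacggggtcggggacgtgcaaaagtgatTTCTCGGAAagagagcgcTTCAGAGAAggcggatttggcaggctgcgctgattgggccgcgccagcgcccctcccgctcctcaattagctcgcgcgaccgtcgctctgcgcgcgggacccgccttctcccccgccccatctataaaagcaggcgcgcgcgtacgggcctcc
Ifit3 held 2 separate response element cores, both on the opposite strand. Isg15 held 3 overlapping ones and Bst2 held 2, the first of which overlapped a gamma-activated site core at bases -136 to -128. Oas1a had 2 overlapping response element cores at bases -20 to -5 and a separate gamma-activated site core. In Igtp, a GTPase gene, a site core at bases -45 to -37 lay 2 bases from a response element core. Irf8 held 2 site cores and no response element core, and its second annotated start had neither in its 200-base window.

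Promoter entries of 300 bases, from 250 before to 50 after the start, were found for 32 of the 44 members. The response element core occurred in 19 of the 32 (59.38%), and in 1079 of all 27025 genes with an entry (3.993%). It was present in 11 of 21 type I-like members, 8 of 8 GTPase members and 0 of the 3 kept apart. The gamma-activated site core occurred in 12 of the 32 (37.5%), against 9.554% of all genes, and in 5 of 21 type I-like, 5 of 8 GTPase and 2 of 3 other members. A match describes letters in this window and is not evidence of binding.

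The arrays were of like depth, with 35482 to 36567 probes well above background and none saturated. Across genes, correlations between arrays lay between 0.977 and 0.993. The Col17a1 probe itself was higher in the KO-labelled group, with values of -2.33, -0.80 and -0.39 in WT replicates 1 to 3 and 0.50, 0.53 and 0.40 in KO replicates 1 to 3 (difference 1.65, limma adjusted p = 0.457). The probe thus goes against the label, the labels do not say whether it lies in the altered part, and the group is called KO-labelled throughout. WT replicate 2 also stood apart in Slc34a1, a phosphate transporter of kidney tubules, at -0.69 against -4.99 to -4.29 elsewhere. Every value below is a log2 processed signal relative to the array's 75th percentile, so 1 unit is 2-fold. A difference is the KO-labelled minus the WT mean, with its standard error after ±.

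Nearly all interferon-stimulated genes overlapped between the genotype labels. Of the 43 measured members, 33 had a lower and 10 a higher mean in KO-labelled ureters, where 50.2% of all genes were lower. The members' median difference was -0.26, where the median of all genes was -0.00. None passed an adjusted p of 0.05 in limma (the share of all genes was 0%), and the smallest member value was 0.477. At an unadjusted p under 0.05, 2 members were lower and 0 higher, against 4.71% of all genes lower and 4.35% higher. The groups did not overlap for the same 2 lower members, Irf8 and Bst2, and for 0 higher ones, against 8.13% and 7.28% of all genes. The members' counts were near or below those shares. For most members the mice of 1 label differed by more than the label means did.

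A single mouse, KO-labelled replicate 2, had the lowest value of all 6 for 29 of the 30 type I-like members, where it was lowest for 18.9% of all genes. The exception was Ifi27l2a, at which KO replicate 3 was lowest at the brightest probe and KO replicate 2 at the other. Relative to each gene's mean over 6 arrays, the median type I-like member stood at -1.42 in KO replicate 2. The same median was 0.09 in KO replicate 1 and 0.49 in KO replicate 3, both above WT replicates 2 and 3, which stood at 0.06 and -0.12. WT replicate 1 was the highest mouse, at 0.71. The corresponding medians over all genes lay between -0.01 and 0.03 on the 6 arrays. KO replicate 2 was the lowest array for the same count of type I-like members, 29, under quantile normalisation, median centring and normexp background correction, although the size of its deviation with normexp was -0.87.

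**Figure D1:**
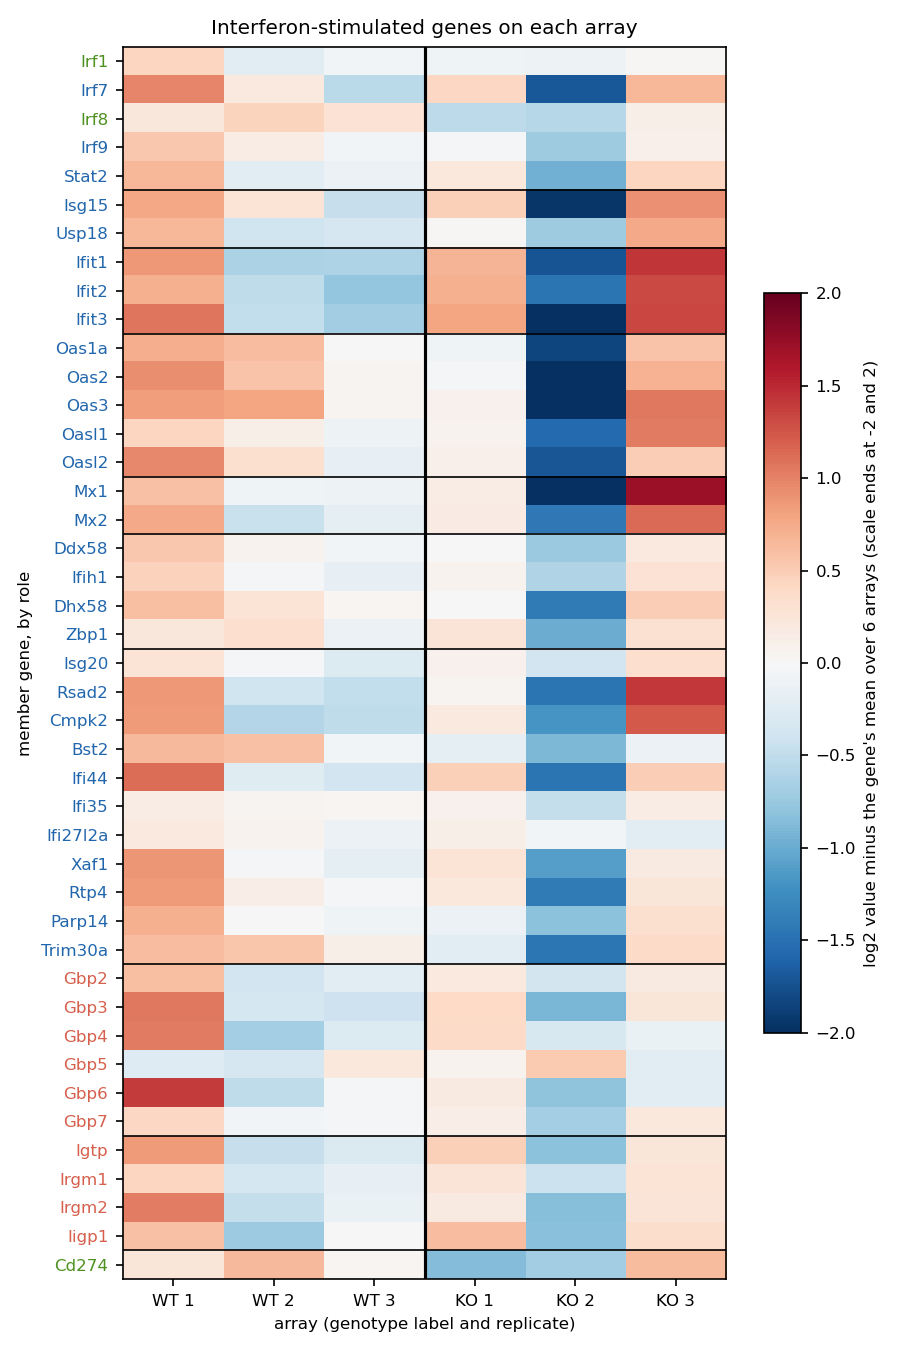
Heat map of the 43 measured members (rows, in order of role, with lines between roles; names in blue are type I-like, red GTPase, green Irf1, Irf8 and Cd274) on the 6 arrays (columns). Colour is the log2 value minus the gene's mean over the 6 arrays; the KO 2 column is blue for nearly all antiviral genes, WT 1 is red for most, and KO 3 is red for the Ifit and Mx genes.

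The high end was split between a WT and a KO-labelled mouse. WT replicate 1 was the highest of 6 for 17 type I-like members and KO replicate 3 for 12, against 25.0% and 9.93% of all genes, and WT replicate 2 was highest for the remaining 1. The range over the 3 KO-labelled mice had a median of 1.92 for type I-like members and 0.31 for all genes. The WT range had a median of 0.83 against 0.38. In 42 of the 43 members, and in 29 of the 30 type I-like ones, the range over the KO-labelled mice was larger than the difference between the groups. Over all genes this held for 17598 of 22260. The group difference of the type I-like members moved with single mice. Their median was -0.32 with 23 of 30 lower over all arrays. It was 0.11 with 11 of 30 lower without KO replicate 2, and -0.10 with 19 of 30 lower without WT replicate 1. Without KO replicate 3, the female, it was -0.67 with 30 of 30 lower. The KO-labelled range exceeded 1 log2 unit in 23 of 30 type I-like members, against 7.50% of all genes.

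**Figure D2:**
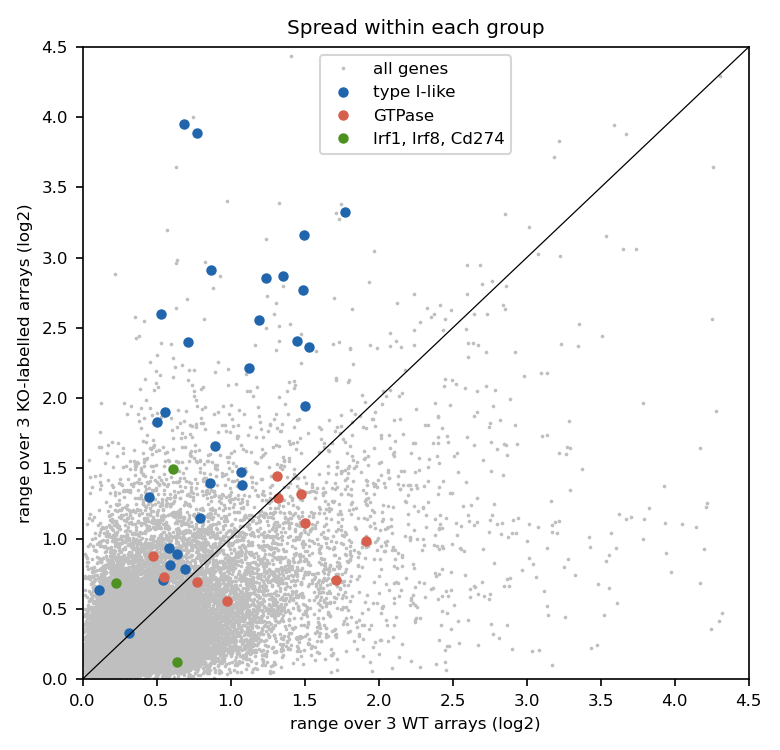
Each point is a gene, placed by its log2 range over the 3 WT arrays (horizontal axis) and over the 3 KO-labelled arrays (vertical axis); grey points are all 22260 genes, of which 27 lie outside the axes, coloured points are members, and the line marks equal ranges. Most blue type I-like members lie above the line, up to 3.95, while the red GTPase members lie on both sides of it.

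The transcription factors that carry the response all had lower means in the KO-labelled group (5 of 5, median -0.42), and 3 of 5 did so without KO replicate 2 or without WT replicate 1. Irf8 is a factor of monocyte, macrophage and dendritic cell development that also answers interferon gamma. It had values of 2.77, 2.99 and 2.83 in WT replicates 1 to 3 and 2.02, 1.98 and 2.66 in KO replicates 1 to 3. The groups did not overlap, but KO replicate 3 lay close to the WT mice. The difference was -0.64 ± 0.21 (limma, adjusted p = 0.477). A second Irf8 probe gave -0.00, 0.02 and -0.12 in WT and -0.89, -1.13 and -0.70 in KO-labelled ureters, again without overlap. Leaving out single arrays moved the difference of the main probe between -0.86 and -0.52, and it remained lower throughout.

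KO replicates 1 and 2 were both low for Irf8, as they were for Cd274 below. Dendritic cell and macrophage markers were also lower in the KO-labelled mice. The 6 measured markers of dendritic cells and MHC class II were all lower there and did not overlap, where 8.13% of all genes were lower without overlap. Of these, H2-Ab1, H2-Aa, H2-Eb1 and Cd74 belong to the MHC class II pathway. The summed level of the 6 was 8.16 to 8.38 in WT and 6.29 to 7.37 in KO-labelled ureters. All 6 macrophage markers were lower, 5 of them without overlap, with summed levels of 7.97 to 8.19 against 7.13 to 7.78. All measured genes of both lists were well above background on all 6 arrays, and Xcr1 was not measured. The plasmacytoid dendritic cell and B cell lists had median differences of -0.08 and -0.06, each with 0 markers lower without overlap. The part of any of these lists in the Irf8 difference was not tested.

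Irf9, the DNA-binding subunit of the type I complex, had values of 2.89, 2.49 and 2.30 in WT and 2.31, 1.64 and 2.45 in KO-labelled ureters, a difference of -0.43 ± 0.26. Only KO replicate 2 lay below the WT range. Irf1, an early gamma-responsive factor, was nearly flat apart from WT replicate 1, with 3.33, 2.68 and 2.84 in WT and 2.80, 2.79 and 2.91 in KO-labelled ureters. Its difference of -0.12 ± 0.18 became 0.07 without WT replicate 1. Irf7 amplifies interferon alpha production. It was chosen after its values were seen, like Stat2, Ifit3, Ifi27l2a and Igtp below, to show the pattern in a well-known gene. It had values of 4.89, 4.10 and 3.36 in WT and 4.31, 2.20 and 4.57 in KO-labelled ureters. KO replicates 1 and 3 lay above WT replicates 2 and 3, and KO replicate 2 lay more than 1 unit below every other mouse. The difference was -0.42 ± 0.70, smaller than its standard error. Stat2, the partner of Irf9, ran the same way, with 2.87, 2.00 and 2.09 in WT and 2.42, 1.24 and 2.64 in KO-labelled ureters.

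The ubiquitin-like modifier Isg15, which is joined to newly made proteins during antiviral responses, had values of 3.19, 2.68 and 1.95 in WT and 2.89, 0.47 and 3.33 in KO-labelled ureters. The highest and the lowest mouse were both KO-labelled. Its difference of -0.38 ± 0.77 became 0.50 without KO replicate 2 and -0.93 without KO replicate 3. Usp18, the protease that removes Isg15 and dampens the type I receptor, had values of 1.19, 0.12 and 0.19 in WT and 0.55, -0.19 and 1.29 in KO-labelled ureters. Its difference of 0.05 ± 0.45 also turned with the choice of array, to -0.32 without KO replicate 3.

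The Ifit genes, whose proteins bind foreign RNA ends and block translation, had slightly higher means in the KO-labelled than in the WT group (3 of 3, median difference 0.26). Ifit1 had values of -0.02, -1.52 and -1.51 in WT and -0.21, -2.62 and 0.54 in KO-labelled ureters. Ifit2 ran in parallel, with -0.996, -2.22 and -2.48 in WT and -1.01, -3.17 and -0.40 in KO-labelled ureters. For both, WT replicate 1, KO replicate 1 and KO replicate 3 formed the high mice. Ifit3 had the widest range of the 3, with 2.37, 0.80 and 0.60 in WT and 2.09, -0.70 and 2.63 in KO-labelled ureters. The Ifit2 difference of 0.37 ± 0.77 was the highest of all members, and without KO replicate 3 it was -0.19. Without that array 3 of 3 Ifit genes were lower, with a median of -0.40, while without KO replicate 2 the median was 1.18. The Ifit3 probe may also read its near-identical neighbouring copies.

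The Oas genes lay at the other end of the members (5 of 5 lower, median -0.90). Their proteins make short adenylate chains that activate RNase L, and the Oasl proteins are relatives, of which Oasl1 is known to restrain Irf7 translation. Oas3 had values of -1.45, -1.50 and -2.23 in WT and -2.20, -5.12 and -1.23 in KO-labelled ureters. In KO replicate 2 the probe was not well above background, and that value carries most of the lowest difference of any member, -1.12 ± 0.96. Without KO replicate 2 the Oas3 difference was 0.01. Oas2, which was well above background on all arrays, had values of 3.11, 2.75 and 2.24 in WT and 2.14, -0.04 and 2.88 in KO-labelled ureters (difference -1.04 ± 0.73, and -0.19 without KO replicate 2). Oas1a had values of 3.92, 3.82 and 3.21 in WT and 3.12, 1.37 and 3.77 in KO-labelled ureters, with a difference of -0.90 ± 0.61. Oasl2 followed with 3.51, 2.86 and 2.38 in WT and 2.65, 0.83 and 3.04 in KO-labelled ureters.

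Unlike the Ifit genes, Oas1a, Oas2 and Oas3 placed WT replicate 2 among the high mice. For Oas1a, Oas2 and Oas3 WT replicate 2 lay close to WT replicate 1, whereas for Ifit1, Ifit2 and Ifit3 it lay more than 1 unit below it. For Oasl1 WT replicate 2 stood at 1.76, against 2.07 in WT replicate 1 and 2.68 in KO replicate 3. For Oasl2 it stood at 2.86, against 3.51 and 3.04. KO replicate 1 was close to WT replicate 1 for the Ifit genes. It lay below all WT mice for Oas1a and Oas2, but not for Oas3, Oasl1 or Oasl2. Without KO replicate 2 the median Oas difference was -0.08 with 3 of 5 genes lower. Leaving out any other single array kept 5 of 5 lower. The genotype difference between these families was not tested. The Oas1a probe may also read the other Oas1 copies of the mouse.

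The Mx genes encode dynamin-like GTPases that trap viral nucleocapsids, and laboratory strains of this background are known to carry a defective Mx1. Mx1 had values of 0.86, 0.20 and 0.17 in WT and 0.43, -1.96 and 1.99 in KO-labelled ureters. The KO-labelled mice alone spanned 3.95 log2 units, the widest range of any member, around nearly the same mean as the WT mice. The difference was -0.26 ± 0.94, and it was 0.80 without KO replicate 2 and -1.18 without KO replicate 3. Mx2 had values of 0.16, -1.04 and -0.78 in WT and -0.44, -2.02 and 0.53 in KO-labelled ureters, and its difference of -0.09 ± 0.67 was 0.01 with normexp background correction.

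**Figure D3:**
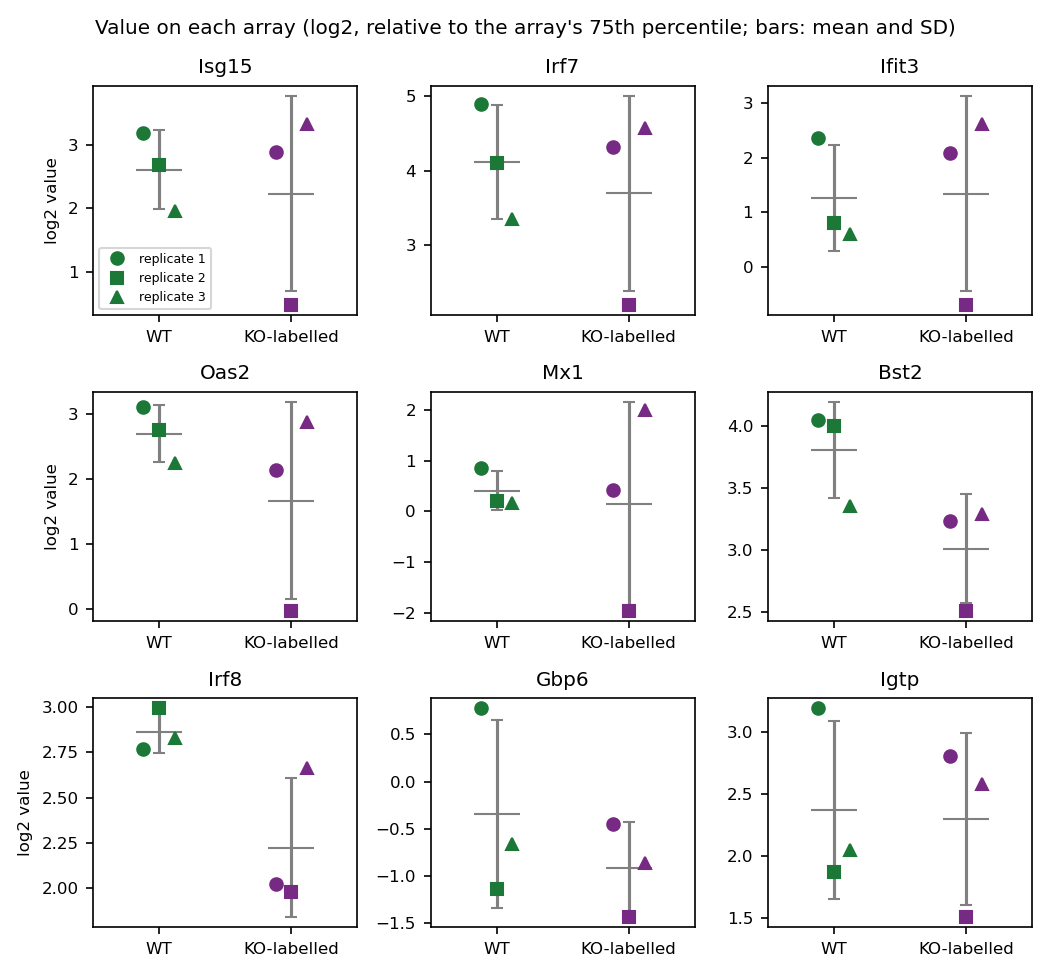
Log2 value of 9 members on each array (vertical axis, relative to the array's 75th percentile), WT in green and KO-labelled in purple, with replicate 1 as circles, 2 as squares and 3 as triangles; grey bars are the group mean and SD of 3 arrays. The purple square, KO replicate 2, is the lowest point in all 9 panels, and for Isg15, Ifit3 and Mx1 the highest point is the other extreme of the same group, KO replicate 3.

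The sensors of viral nucleic acid had lower means in the KO-labelled group (4 of 4, median -0.33). Their median range over the KO-labelled mice was 1.11, against 1.38 for the other antiviral effectors below. Single genes overlapped, from 0.89 to 1.90 for the sensors and from 0.33 to 2.87 for those effectors. Ddx58 (RIG-I), a helicase that detects RNA ends, had values of 2.83, 2.35 and 2.24 in WT and 2.28, 1.55 and 2.48 in KO-labelled ureters, a difference of -0.37 ± 0.28. Dhx58 (LGP2), its regulator, had values of 0.70, 0.39 and 0.15 in WT and 0.12, -1.30 and 0.60 in KO-labelled ureters, a difference of -0.61 ± 0.48. Zbp1, a sensor of left-handed nucleic acid that can start necroptosis, had values of 1.40, 1.505 and 1.05 in WT and 1.43, 0.18 and 1.48 in KO-labelled ureters. In all 3 genes KO replicate 2 alone lay below the WT range, apart from KO replicate 1 of Dhx58, which was just under it. Without KO replicate 2 the Zbp1 difference of -0.29 ± 0.37 became 0.14, and 2 of the 4 sensors were lower.

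Bst2 (tetherin), which holds budding virions at the cell surface, was the type I-like member with the smallest unadjusted p. It had values of 4.05, 4.00 and 3.36 in WT and 3.23, 2.51 and 3.29 in KO-labelled ureters. The groups did not overlap, although KO replicate 3 lay just below WT replicate 3. The difference was -0.79 ± 0.28 (limma, adjusted p = 0.502), and it stayed between -1.02 and -0.54 when single arrays were left out. Bst2 is also a marker of plasmacytoid dendritic cells. All 3 markers of those cells had lower means in KO-labelled ureters, with differences of -0.08 for Siglech, -1.03 for Ccr9 and -0.00 for Tcf4, and 0 of 3 were without overlap. Their summed level, which is mostly Siglech, was 5.88 to 6.05 in WT and 5.77 to 6.02 in KO-labelled ureters. Their part in the Bst2 difference was not tested.

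The other antiviral effectors were lower for 8 of 11 genes (median -0.33), and for 5 of 11 without KO replicate 2. Trim30a, a ubiquitin ligase of the tripartite motif family, had values of 1.90, 1.83 and 1.40 in WT and 1.05, -0.17 and 1.66 in KO-labelled ureters, a difference of -0.86 ± 0.46. Rtp4, a receptor chaperone that also dampens interferon responses, had values of 3.77, 3.05 and 2.88 in WT and 3.13, 1.51 and 3.17 in KO-labelled ureters, a difference of -0.63 ± 0.50. For Rtp4 KO replicates 1 and 3 lay inside the WT range, while for Trim30a KO replicate 1 was below it. Ifi27l2a was nearly constant, with 7.68, 7.55 and 7.37 in WT and 7.61, 7.44 and 7.28 in KO-labelled ureters at its brightest probe. Its other probe was lower in KO replicate 2, at -4.06 against -3.10 to -2.60 elsewhere, so the 2 probes describe different spreads. The remaining 7 effectors, among them viperin (Rsad2), its neighbour Cmpk2, Isg20 and Xaf1, had differences between -0.44 and 0.16.

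**Figure D4:**
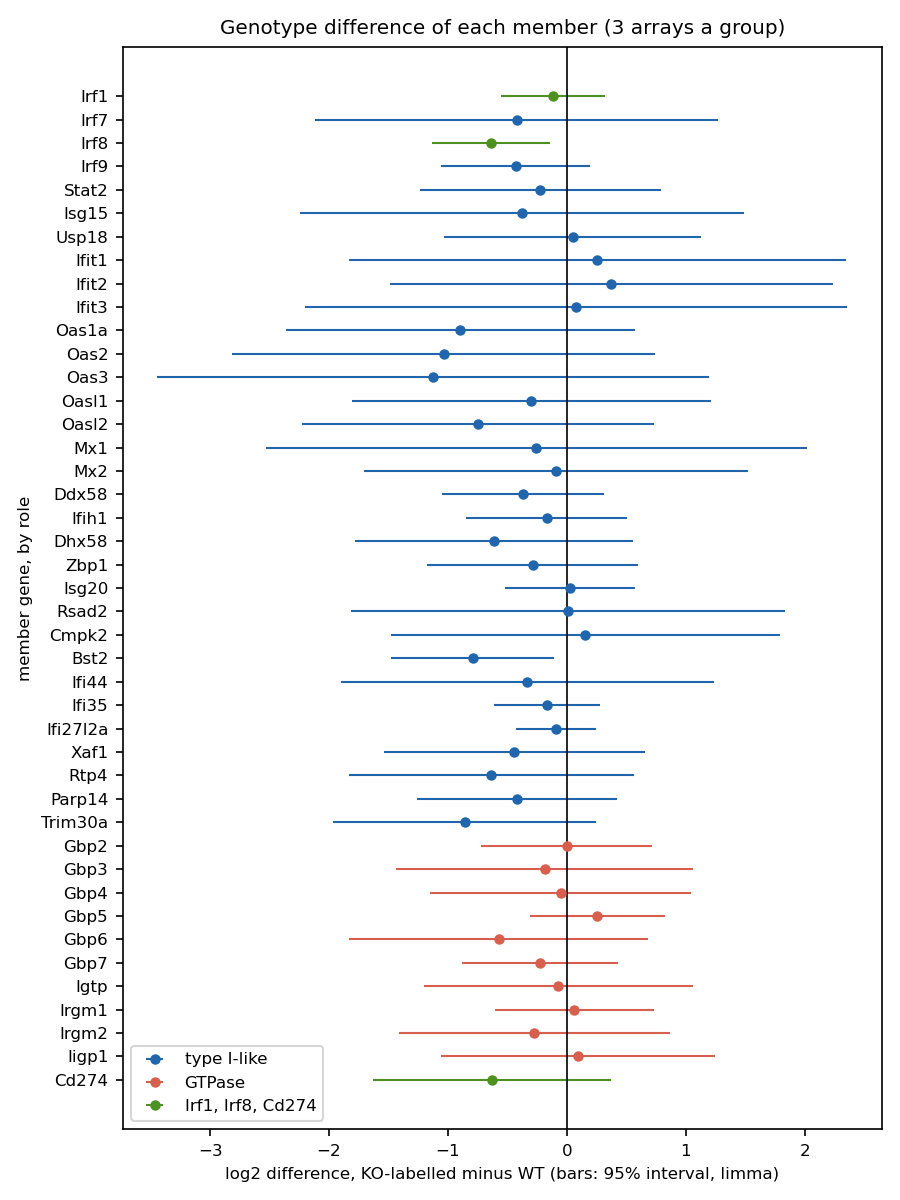
Log2 difference between KO-labelled and WT means for each of the 43 members (points, in order of role) with the 95% interval from limma (bars); the vertical line marks no difference. Only the intervals of Irf8 and Bst2 lie wholly below 0, and the widest intervals are those of Oas3, Ifit3 and Mx1.

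The GTPase genes differed less between the labels than between mice of either label. Of the 10 measured genes 7 were lower and 3 higher in the KO-labelled group, with a median difference of -0.06 and a range of -0.57 to 0.26. WT replicate 1 was the highest mouse for 8 of the 10. KO replicate 2 was the lowest for 7, and WT replicate 2 for the other 3. Without WT replicate 1 only 2 of 10 were lower and the median was 0.29. Without KO replicate 2 only 1 of 10 was lower and the median was 0.14, so the direction of this group rests on single mice of either label.

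Among the guanylate-binding proteins, which coat and break open pathogen vacuoles, 5 of 6 were lower (median -0.12), and 4 of 6 with median centring or with normexp background correction. Without KO replicate 2 only 1 of 6 was lower (median 0.08), and without WT replicate 1 only 2 of 6 (median 0.24). Gbp6 had values of 0.77, -1.14 and -0.66 in WT and -0.45, -1.43 and -0.86 in KO-labelled ureters. WT replicate 1 stood more than 1 unit above every other mouse, and without it the difference of -0.57 ± 0.52 was -0.02. Gbp7 had values of 0.37, -0.10 and -0.07 in WT and 0.09, -0.72 and 0.16 in KO-labelled ureters, a difference of -0.23 ± 0.27 that was 0.06 without KO replicate 2. Gbp5, which promotes inflammasome assembly, was the exception among the 43 members in being highest in KO replicate 2. Its brighter probe gave -0.11, -0.19 and 0.36 in WT and 0.22, 0.67 and -0.06 in KO-labelled ureters. Its other probe gave the usual order, with -0.25, -1.29 and -1.22 in WT and -0.88, -1.69 and -0.77 in KO-labelled ureters. The probes differed in sign (0.26 and -0.19), so the Gbp5 direction is unsettled.

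The immunity-related GTPases, which act on vacuoles and autophagy, were lower for 2 of 4 genes, with a median of -0.00. Irgm2 had values of 2.996, 1.49 and 1.83 in WT and 2.15, 1.12 and 2.23 in KO-labelled ureters, and its difference of -0.27 ± 0.47 was 0.17 without WT replicate 1. Iigp1 had values of 2.90, 1.59 and 2.33 in WT and 2.93, 1.49 and 2.68 in KO-labelled ureters. Irgm1 had values of 1.92, 1.15 and 1.33 in WT and 1.75, 1.07 and 1.76 in KO-labelled ureters. Their differences of 0.09 ± 0.48 and 0.06 ± 0.28 turned negative without WT replicate 2, KO replicate 1 or KO replicate 3. That of Irgm1 also did so without WT replicate 3. In all 3 genes WT replicate 2 and KO replicate 2 were the low mice, 1 of each label. Igtp, whose promoter is shown above, had the same order, with 3.19, 1.87 and 2.05 in WT and 2.80, 1.51 and 2.58 in KO-labelled ureters (difference -0.07 ± 0.47). A probe named Tgtp2, a near-identical copy of the unmeasured Tgtp1, gave 3.11, 1.20 and 1.36 in WT and 2.27, 0.99 and 2.20 in KO-labelled ureters. Probes for several Gbp and Irg genes may read close copies in the same clusters.

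Cd274 (PD-L1), a gamma-inducible checkpoint ligand, followed neither arm. It had values of 0.28, 0.69 and 0.08 in WT and -0.84, -0.66 and 0.66 in KO-labelled ureters, so KO replicates 1 and 2 were low and KO replicate 3 lay just below the highest WT mouse. The difference was -0.63 ± 0.41, and -1.10 without KO replicate 3. The summed level of 3 pan-leukocyte markers had a like order, with 5.16, 5.85 and 5.59 in WT and 4.70, 4.59 and 5.63 in KO-labelled ureters. Their part in the Cd274 values was not tested.

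Set side by side, the arms shared their extreme mice and differed in the middle. The median deviation from the gene mean was 0.71 for type I-like and 0.73 for GTPase members in WT replicate 1, and -1.42 and -0.74 in KO replicate 2. In WT replicate 2 the arms parted, at 0.06 for type I-like and -0.42 for GTPase members, where all 10 GTPase genes lay below their mean and 16 of 30 type I-like genes above it. KO replicate 3 stood at 0.49 and 0.23, and KO replicate 1 at 0.09 and 0.22. The spread within a label also differed in kind. For type I-like members the median SD was 0.44 in WT and 1.05 in KO-labelled ureters, and for GTPase members it was 0.69 and 0.49. All genes had median SDs of 0.20 and 0.16. With 3 mice a label these SDs are imprecise, and the difference between them was not tested.

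**Figure D5:**
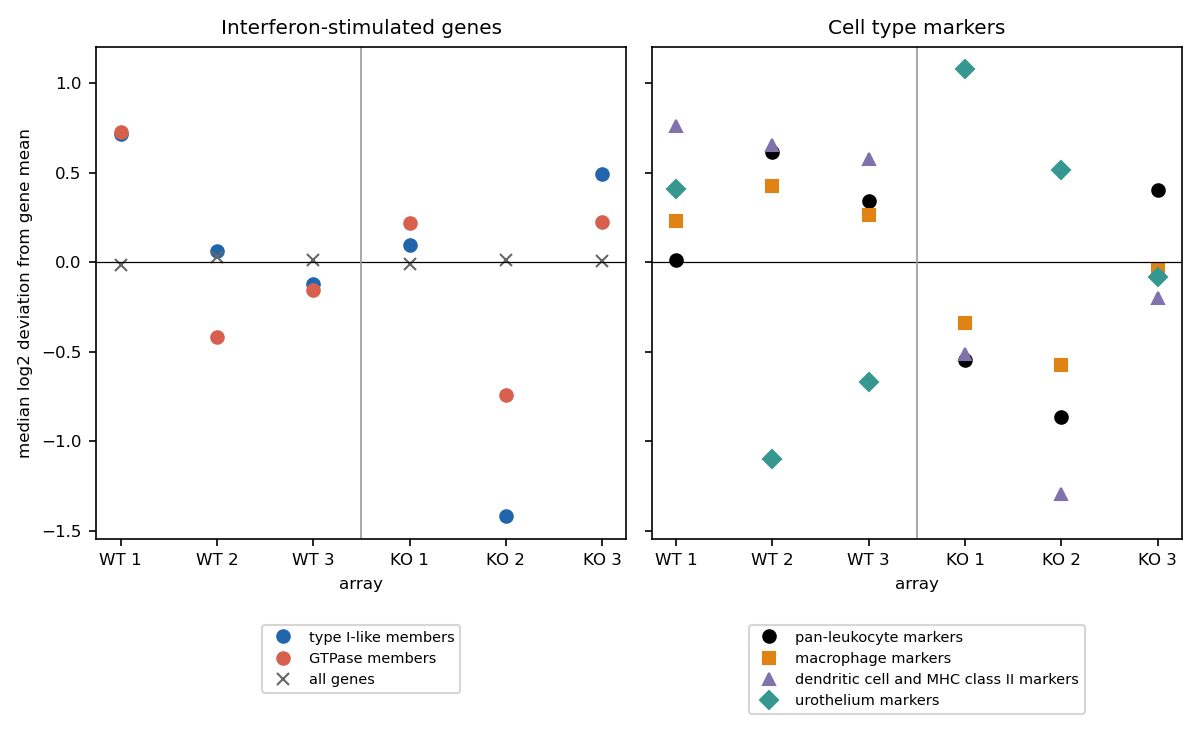
Median log2 deviation from the gene mean over 6 arrays (vertical axis) on each array (horizontal axis), for the 30 type I-like members, 10 GTPase members and all genes (left) and for 4 lists of cell type markers (right). Type I-like members reach -1.42 on KO 2 and 0.71 on WT 1, while the dendritic cell and MHC class II markers are above 0 on all WT arrays and below 0 on all KO-labelled arrays.

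Cell markers did not all follow the interferon order. KO replicate 2 had the lowest summed level of all 6 mice for the pan-leukocyte, macrophage, dendritic cell, T and NK cell (0.46 against 0.62 to 1.24 elsewhere) and B cell (0.22 against 0.67 to 1.33) lists. The T and NK cell sum is mostly Cd3e and the B cell sum mostly Cd79b. KO replicate 2 was also lowest for the fibroblast (8.59) and kidney tubule (-2.22) lists. Outside WT replicate 2 the kidney tubule sum is mostly Aqp2, a dim probe at -2.75 in KO replicate 2 and -2.67 to -2.31 elsewhere. In that list Lrp2 was well above background on only 1 KO-labelled array. For neutrophil markers it stood at 7.51, with WT replicate 1 lowest at 6.98. For plasmacytoid dendritic cell markers it stood at 5.85, with KO replicate 3 lowest at 5.77. KO replicate 2 was the highest of all 6 mice for the smooth muscle (9.07) and endothelium (4.25 against 3.70 to 3.94 elsewhere) lists. WT replicate 1, the highest mouse for both arms, had the lowest pan-leukocyte level of the WT mice but the highest dendritic cell and MHC class II level of all 6, 8.38. KO replicate 1, whose pan-leukocyte level of 4.70 was close to that of KO replicate 2, stood at 0.09 for type I-like genes where KO replicate 2 stood at -1.42. All 7 urothelial markers had higher means in KO-labelled ureters, with summed levels of 6.76 to 7.53 in WT and 7.63 to 8.34 in KO-labelled ureters. All 5 smooth muscle markers did too, with summed levels of 8.08 to 8.74 against 8.49 to 9.07. How far cell composition enters the interferon values was not tested.

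Most probes of a member placed KO replicate 2 alike. Of 69 probes kept for the members, 49 belonged to type I-like genes, and KO replicate 2 was the lowest array at 47 of them. It was lowest at 10 of 15 GTPase probes. Of 21 members with more than 1 kept probe, 5 had probes of both signs: Gbp5, Ifi44, Iigp1, Irgm1 and Rsad2.

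A list of 111 further genes of the pathway gave the setting upstream and downstream of the members. Of these, 94 were measured, 74 lower and 20 higher in KO-labelled ureters, where 50.2% of all genes were lower. Of the 94, 0 passed the adjusted threshold. At an unadjusted p under 0.05, 10 were lower and 2 higher, where the shares of all genes were 4.71% and 4.35%. Without overlap between groups 15 were lower and 1 higher, where the shares of all genes were 8.13% and 7.28%. KO replicate 2 was the lowest mouse for 59 of the 94. Among the ligands, Ifnb1 passed background on 0 arrays and Ifng on only 1, so neither interferon beta nor gamma was measured here. The 9 measured ligand genes, Ifna1, Ifna5, Ifna9, Ifnab, Ifnl3, Il12a, Il12b, Il18 and Il27, had differences between -0.43 and 0.43. Ifna and Ifnl3 probes were dim, with means between -4.66 and -3.52 in both groups, and the Ifna copies are nearly alike in sequence.

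The 6 receptor chains were measured on all arrays, and KO replicate 2 was the lowest mouse for only 1 of them, Il10rb. Ifnar2, a chain of the type I receptor, had values of 3.75, 3.77 and 3.63 in WT and 3.36, 3.45 and 3.33 in KO-labelled ureters, without overlap (difference -0.34 ± 0.10, limma, adjusted p = 0.460). Its partner Ifnar1 differed by 0.22 ± 0.15, with its highest value, 3.68, in KO replicate 2. The gamma receptor chains Ifngr1 and Ifngr2 differed by -0.17 ± 0.13 and -0.07 ± 0.20. Ifnlr1, the epithelial lambda receptor, was higher by 0.56 ± 0.19 without overlap, and its shared partner Il10rb had a difference of -0.50 ± 0.19 without overlap. Neither passed the threshold (limma, adjusted p of 0.495 and 0.515).

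Of the regulators, Ciita, the gamma-inducible master factor of MHC class II genes, had the smallest unadjusted p of the pathway list. It had values of 2.72, 2.13 and 1.77 in WT and 0.75, -0.45 and 1.36 in KO-labelled ureters, a difference of -1.65 ± 0.49 (limma, adjusted p = 0.458). Here the groups did not overlap, unlike those of the GTPase members. Nlrc5, its class I counterpart, had values of 1.24, 1.48 and 1.15 in WT and 0.96, 0.15 and 1.26 in KO-labelled ureters (difference -0.50 ± 0.29). Irf4, a factor of lymphocytes and some dendritic cells, ran the other way, with -0.75, -2.16 and -2.39 in WT and -0.83, 0.38 and -0.37 in KO-labelled ureters (difference 1.49 ± 0.51), and KO replicate 2 was the highest mouse. Ifi30, a lysosomal reductase of antigen-presenting cells, had values of 3.74, 4.10 and 4.14 in WT and 3.22, 3.14 and 3.73 in KO-labelled ureters (difference -0.63 ± 0.20), with KO replicate 3 just below WT replicate 1. Ciita, Nlrc5, Irf4 and Ifi30 kept their direction under all 16 alternatives run, although the replicate block and the variance model cannot change a difference.

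Among 44 measured target genes outside the members, such as immunoproteasome subunits, peptide transporters, chemokines and Schlafen genes, 42 were lower, against 50.2% of all genes. Of these 5 were lower at an unadjusted p under 0.05, against 4.71% of all genes, and 0 passed the adjusted threshold. Without overlap between groups 9 were lower, against 8.13% of all genes. Their median difference was -0.23, and KO replicate 2 was the lowest mouse for 38. The 2 higher ones were Cxcl10, a chemokine that draws T cells, and Daxx, a nuclear chaperone, which are named because they are the exceptions. Cxcl10 had values of 1.25, 0.32 and 0.55 in WT and 0.97, 0.02 and 2.89 in KO-labelled ureters, again with the lowest and the highest mouse both KO-labelled.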

How the data were processed

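Ureter RNA of 6 mice was labelled with Cy3 and hybridised to 1-colour arrays. Per the file headers and the submitters' processing notes, the deposited intensity values came from Agilent Feature Extraction 12.0.3.1, as a background-subtracted and detrended processed signal beside the mean and background signals. Any scaling between arrays by the authors was not given in the sources used here. Per the file headers, probe positions refer to mm9. The arrays shared 1 slide and 1 scan time, so neither acts as a batch.

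Of the 59305 spots that were no controls, outliers were set to missing, and spots of the same probe were averaged to 56605 probes. The deposited intensity was put on the log2 scale and centred on the 75th percentile of its array. A probe was kept if well above background throughout a group, and the brightest kept probe stood for its gene. RefSeq accessions named 35405 probes and the other 21200 kept the file's name.

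Over 22260 genes the genotype term was tested in limma 3.58.1 (lmFit, eBayes; R 4.3.3) with p-values adjusted by Benjamini-Hochberg and called under 0.05, after a check on simulated data. With 3 arrays a group, exact permutation cannot give a two-sided p under 0.1 and was not used. The number of arrays limits the precision.

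The members, the lists of pathway genes and markers, and the rules were chosen with earlier results of these data known. Array values are given for the 3 members of smallest unadjusted p in each role of 4 or more measured genes, 2 in smaller roles, and the members with the largest difference in each direction. Of the pathway list, measured ligands and receptors, Ciita, Nlrc5 and the 4 genes of smallest p are named, and 1 further gene is not reported here. Promoter sequences are those of RefSeq. Alternatives changed the background correction, scaling, dim-probe filter, probe choice, variance model, sex term and replicate block, or left out each array.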

Additional observations from a re-analysis of the deposited data

How the results depend on the processing

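In all 16 alternatives 0 members passed the adjusted threshold in limma, and the smallest adjusted p of a member in any of them was 0.153 (Irf8). Over all genes the count was 0, with 1 in the fit with the replicate number as a block (replicate block) and 0 to 1 when single arrays were left out (1 without KO replicate 2). Both genes are named in the files by a transcript identifier only and neither is a member. The labels do not say whether the replicate numbers pair the samples. Deviations of same-numbered arrays from their group means correlated at 0.53, -0.15 and -0.03, and those of other WT and KO-labelled arrays at -0.45 to 0.46. With 3 arrays a group these correlations cannot settle pairing. In this balanced design the replicate block cannot change a difference, so the type I-like median stayed at -0.32 by design. Members lower at an unadjusted p under 0.05 numbered 2, 5 with a sex covariate and 0 to 5 when single arrays were left out (0 without WT replicate 2 or KO replicate 2, 1 without WT replicate 1 or KO replicate 1, 5 without KO replicate 3). The sex covariate fits KO replicate 3, the only female, exactly and so equals its omission. The 5 were Irf8, Bst2, Cd274, Oas1a and Trim30a. The type I-like median ran from -0.67 to 0.11 and the GTPase median from -0.32 to 0.29 when single arrays were left out. An alternative chosen after seeing the data, without WT replicate 2 and KO replicate 3, gave -0.81 and -0.43.

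Of 415 fits of the 26 members named by rule, 379 kept direction and side of the threshold and 36 changed direction. The 379 include fits that could not change direction, since the replicate block and the variance model leave a difference as it is. The sex term repeats the omission of KO replicate 3. No member passed the threshold in any fit, so the side never changed. With a sex covariate Usp18 was -0.32, Ifit1 -0.40, Ifit2 -0.19, Irgm1 -0.055 and Iigp1 -0.065. Without WT replicate 2 and KO replicate 3 these were -0.51, -0.65, -0.35, -0.21 and -0.41. With all probes of a gene averaged, Irgm1 was -0.053 and Iigp1 -0.0060, and with normexp background Mx2 was 0.012. Leaving out single arrays gave -0.38 to 0.055 for Gbp7, -0.40 to 1.18 for Ifit1, -0.19 to 1.20 for Ifit2, -0.25 to 0.53 for Iigp1 and -0.25 to 0.072 for Irf1. It gave -0.10 to 0.29 for Irgm1, -0.58 to 0.17 for Irgm2, -0.93 to 0.50 for Isg15, -1.18 to 0.80 for Mx1 and -0.68 to 0.60 for Mx2. It gave -1.93 to 0.010 for Oas3, -0.32 to 0.42 for Usp18 and -0.51 to 0.14 for Zbp1. Apart from the omitted arrays, the cause of these changes was not tested. Where an omission leaves 2 arrays, limma takes the spread from both groups.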
